A study of Homo sapiens with 108 samples.

Results

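Respiratory complexes III, IV and V are built largely from subunits encoded in the nucleus, and the mRNAs of these subunits, together with that of cytochrome c, were followed by level and by metabolic label. Members were the protein-coding genes whose symbol begins with UQCR, COX4, COX5, COX6, COX7, COX8, ATP5F, ATP5M or ATP5P, with CYC1 and CYCS added. The rule used symbols alone and no measured value. It found 47 of the 19761 genes in the deposited tables: 10 of complex III, 17 of complex IV, 19 of complex V, and CYCS, the gene of cytochrome c. Read-through and copy loci that carry such a symbol, ATP5MF-PTCD1, ATP5MGL and UQCRHL, entered by the same rule.

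The experiment asked whether zinc-finger proteins that bind RNA influence how long mRNAs last. HEK293T cells, a transformed line from human embryonic kidney, were transduced with lentivirus carrying a short hairpin RNA (shRNA) against ZNF706, ZMAT5, ZMAT3, ZFP36L1, PHF7, MAZ, CNOT4 or BRCA1, or a non-targeting hairpin (NT), and were selected with puromycin. All arms, NT included, then received 10 µM 4-thiouridine (4SU) for 24 h, renewed every 8 h, followed by 1 mM uridine for 0, 2, 4 or 8 h. With 3 replicates, called biological in the methods, the 9 arms at 4 chase times gave 36 groups and 108 libraries, 12 per arm. In SLAM-seq, alkylated 4SU is copied as C, so the share of T positions read as C (the T>C rate) measures how much of an mRNA was made during labelling, and its fall during the uridine chase measures loss of that labelled RNA. Libraries were read from the poly(A) end, and a level is the number of reads in the 3′ UTR intervals of a gene. All 8 knockdowns were compared with the same 12 NT libraries, so the 8 comparisons are not independent of each other.

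Complex III (ubiquinol-cytochrome c reductase) passes electrons from ubiquinol to cytochrome c, and complex IV (cytochrome c oxidase) passes them on to oxygen. Both pump protons across the inner mitochondrial membrane, and complex V (ATP synthase) uses the gradient to make ATP. The catalytic cores of complexes III and IV contain subunits encoded by mitochondrial DNA, and the nuclear subunits described here are translated in the cytosol, imported and assembled around them. Several nuclear subunits of complex IV also have isoforms expressed mainly in muscle, lung or testis.

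The number of 3′ UTR reads in a library ran from 63659 to 30750027 (median 14870063), with the lowest in PHF7 8 h replicate 3 and the next lowest, 1781724, in CNOT4 2 h replicate 3. Reads of CNOT4 and ZFP36L1 libraries held fewer T positions each (27.7 to 34.0 and 25.9 to 33.0) than those of NT (37.1 to 37.8), and the headers of the CNOT4 8 h tables name a pulse-chase design. The mRNA of the target stood at 12.2% of NT for MAZ, 24.9% for ZMAT3, 10.4% for ZMAT5 and 48.9% for ZNF706. It did not pass the test for BRCA1 (53.4%, adjusted p = 0.22), PHF7 (23.8%, adjusted p = 0.34) or CNOT4 (97.5%, adjusted p = 0.95), and was higher than in NT, at 174% (adjusted p = 0.0023), in the libraries labelled ZFP36L1. The names CNOT4 and ZFP36L1 stand below for libraries so labelled. For the labelled cell type, VIM was read in all 108 libraries (207 to 757 CPM, counts scaled to mapped reads), as was NEFL, whereas PAX2 had a median of 0. Of 10 markers of other cell types, HBB and INS had no read, COL1A1 had a median of 7.68 CPM (highest 165), and the other 7 had a median of 0.

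Promoters of nuclear respiratory genes are known to be bound by ETS-family factors such as GABPA. The letters CCGGAAG, or CTTCCGG on the other strand, were searched in RefSeq promoters (GRCh38.p14, 250 bases before to 50 after a start site) of the 35 members present in that table. They were found in 14 of them (40.0%), against 12.2% of 27305 genes with a promoter there and 16.5% of 15843 protein-coding genes. AAGATGGC (GCCATCTT on the other strand), the core of the YY1 motif, was found in 4 members (11.4%, against 3.52% of all and 4.66% of protein-coding genes), and CGCATGCG, a core of the NRF1 motif that reads the same on both strands, in 5, ATP5F1C, ATP5MC2, ATP5ME, ATP5PF and COX6A1 (14.3%, against 2.46% and 3.28%). The counts share members: ATP5PF is counted under each motif, and ATP5ME and COX6A1 under both the ETS and the NRF1 letters. Windows of 30 bases are printed below for 6 members with the ETS letters, chosen because they include members that rose (COX6B1, COX5B), members that fell (ATP5ME, ATP5PD) and members that did both or little (ATP5MG, COX4I1) in the comparisons that follow. Capitals mark the ETS letters, and each window reads 5′ to 3′ in the direction of the gene.
COX6B1: acctctctcagCTTCCGGctggtagtagtt
COX5B: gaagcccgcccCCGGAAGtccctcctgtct
ATP5ME: tgcaggttgtgCTTCCGGtgcggaggtcag
ATP5PD: ccgggaagataCTTCCGGaaccagccctca
ATP5MG: tgcagcgggtcCTTCCGGcgggtgacattc
COX4I1: ggccttgctctCTTCCGGtcgcgggacacc
They lie in GRCh38 COX6B1 at chr19:35648300-35648329, plus strand, COX5B at chr2:97646014-97646043, plus strand, ATP5ME at chr4:674255-674284, minus strand, ATP5PD at chr17:75047052-75047081, minus strand, ATP5MG at chr11:118401596-118401625, plus strand and COX4I1 at chr16:85799686-85799715, plus strand. A match is a description of these letters, and binding was not measured.

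HEK293T cells expressed most members. In NT libraries 39 of 47 averaged over 5 CPM and 31 over 100 CPM, and members together took 1.49% ± 0.0723 of CPM in 3′ UTRs (SD, n = 12). The mean share per arm ran from 1.42% in ZMAT3 to 1.72% in MAZ. Tissue isoforms were nearly unread: COX6A2 and COX7A1 (heart and muscle) and COX7B2 had no read in any library. COX4I2, the lung isoform, had 20 reads in 4 libraries, and COX8C had 281 in 19, all of them multimapped. COX6B2, a testis isoform, had 267 reads in 21 libraries, of which 153 came from 2 CNOT4 libraries. Its intervals share 425 bases with an overlapping gene. ATP5MF-PTCD1 had 1571 reads in 39 libraries, and its intervals share 220 bases with PTCD1.

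The filter on low counts kept 42 members in at least 1 comparison and 40 in all 8. The 5 never tested were COX4I2, COX6A2, COX6B2, COX7A1 and COX7B2. Copies limit some values. Over 1% of reads were multimapped in 9 members, most in UQCRFS1 (30.5%) apart from COX4I2 and COX8C, then COX7B (4.40%) and CYCS (3.75%), and 6 members share counted bases with another gene.

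Levels of the members moved in both directions in 7 of 8 arms. A call needed a fold over 1.2 and an adjusted p (Benjamini-Hochberg, over all genes tested) under 0.05 in edgeR's quasi-likelihood test, and 120 calls were made over the 8 comparisons, 79 higher and 41 lower than NT. In the libraries labelled ZFP36L1, 23 of 40 members rose and 6 fell, where 21.7% of all genes tested rose and 18.3% fell. In CNOT4, 12 of 40 members rose and 13 fell, beside 13.5% and 13.5% of all genes. MAZ knockdown was the most one-sided: 15 of 41 members rose and 1 fell, beside 5.19% and 3.55%. In ZNF706, 9 of 41 members rose and 2 fell (all genes 2.85% and 2.29%), and in ZMAT5, 8 of 41 members rose and 5 fell (5.29% and 4.22%). In ZMAT3, 5 of 41 members rose and 8 fell (5.49% and 4.75%), and in PHF7, 6 of 42 members rose and 6 fell (3.89% and 4.53%). In BRCA1, 1 of 40 members, COX7C, was called higher and none lower (0.0393% and 0.0393% of all genes). The balance of rises and falls moved with the libraries and scaling used in 3 arms. Without its shallow library, rises and falls numbered 18 and 11 in CNOT4 and 8 and 6 in PHF7 (34.4% and 14.0% of all genes called either way). PHF7 had 0 and 3 without replicate 1, 0 and 3 without replicate 2 and 1 and 9 against the other knockdowns (all genes 2.09, 1.87 and 10.1%). ZMAT3 had 6 and 6 with upper-quartile scaling and 6 and 6 without replicate 3 (all genes 10.6 and 4.80%).

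Over all members tested, the median log2 difference from NT was 0.32 in ZFP36L1 (all genes 0.15), 0.23 in MAZ (0.080) and 0.13 in ZNF706 (0.049). It lay below the median of all genes in PHF7 (−0.027 against 0.067) and ZMAT3 (0.024 against 0.093). In the other arms it was 0.064 in BRCA1, 0.12 in CNOT4 and 0.089 in ZMAT5 (all genes −0.027, 0.075 and 0.063). Of 42 members tested, 22 were called up only, 10 down only, 8 up in some arms and down in others, and 2, ATP5MF-PTCD1 and ATP5MGL, in none. Of the 120 calls, 114 had the same direction at all 4 chase times (beside 91.1% of the calls over all genes). Libraries did not overlap NT in 25 (20.8%, all genes 14.1%), 64 kept an adjusted p under 0.05 whichever replicate number was left out (53.3%, all genes 41.6%), and 7 were lost when multimapped reads were removed (5.83%, all genes 7.85%).

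**Figure D1:**
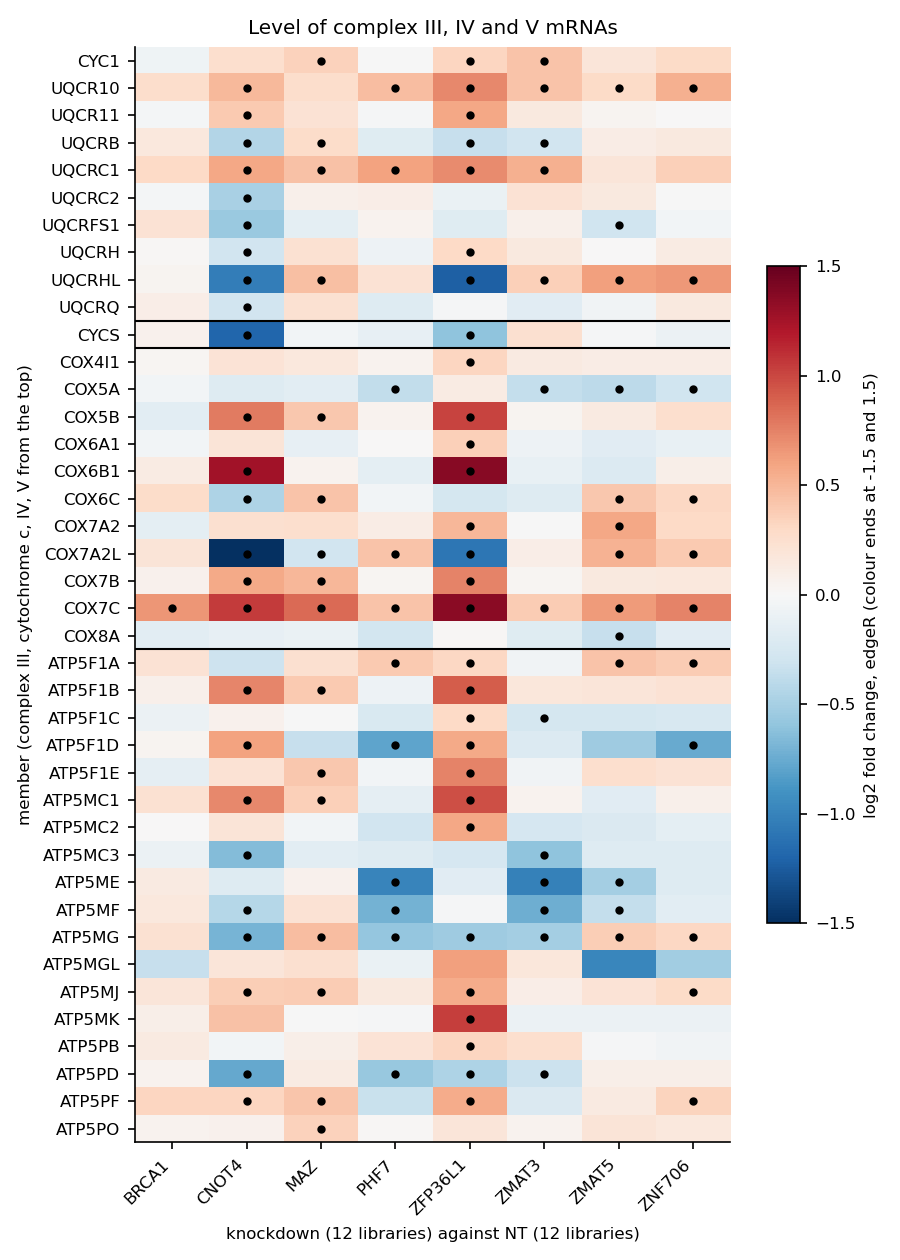
Fitted log2 difference from NT (colour, ends at ±1.5) of 40 members (rows, grouped as complex III, cytochrome c, IV and V) in the 8 knockdowns (columns), with dots where a member was called. COX7C is raised in all 8 columns, ATP5ME, ATP5MF and ATP5MG of complex V are lower in PHF7 and ZMAT3, and CNOT4 and ZFP36L1 hold the strongest colours in both directions. COX8C and ATP5MF-PTCD1 are not drawn.

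Among complex III members, UQCR10 and UQCRC1 rose in most arms, and the Rieske subunit fell in 2. UQCR10 (a small membrane subunit; chr22:29767369-29770413, plus strand, hg38) stood at 344 to 458 (median 369.9) normalised CPM in ZFP36L1 libraries against 179 to 298 (median 245) in NT (log2 0.72, SE 0.075, adjusted p = 8.8e-10). The 2 sets of 12 libraries did not overlap. It was also called higher in ZNF706 at 267 to 407 (median 336) against 178 to 296 (median 241) (log2 0.53, SE 0.076, adjusted p = 6.3e-06), with overlapping libraries, and in CNOT4, PHF7, ZMAT3 and ZMAT5 (log2 0.48, 0.47, 0.43 and 0.29). The 2 arms not called had log2 0.26 (adjusted p = 0.040) in MAZ and 0.27 (adjusted p = 0.45) in BRCA1. UQCRC1, a core protein on the matrix side (chr3:48599002-48610976, minus strand), rose in 5 arms, most in ZFP36L1, at 126 to 166 (median 139) against 62.4 to 117 (median 82.9) (log2 0.71, SE 0.10, adjusted p = 6.7e-07), again without overlap. In PHF7 it stood at 81.2 to 165 (median 137) against 65.2 to 123 (median 86.7) (log2 0.61, SE 0.13, adjusted p = 0.0020, up to 0.12 with 1 replicate number left out), and in ZMAT3 at 100.2 to 155 (median 125) against 63.0 to 119 (median 83.5) (log2 0.53, SE 0.11, adjusted p = 0.0010). Both sets overlapped NT. Its log2 difference was 0.58 in CNOT4 and 0.43 in MAZ, both called, and 0.30, 0.18 and 0.36 in BRCA1, ZMAT5 and ZNF706, not called.

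CYC1, the cytochrome c1 subunit that hands electrons to cytochrome c (chr8:144095039-144097525, plus strand), rose in 3 arms: in ZMAT3 it stood at 159 to 250.2 (median 195) against 118 to 168 (median 147) (log2 0.42, SE 0.083, adjusted p = 5.9e-04), and the differences in MAZ and ZFP36L1 were 0.34 (adjusted p = 0.0077) and 0.33 (adjusted p = 0.016). Elsewhere its log2 difference was 0.26 in CNOT4, 0.28 in ZNF706, 0.18 in ZMAT5, −0.010 in PHF7 and −0.068 in BRCA1, none of them called. UQCRFS1, the Rieske iron-sulphur subunit (chr19:29205320-29213151, minus strand), fell in CNOT4, at 14.9 to 234 (median 165) against 191 to 304 (median 228) (log2 −0.56, SE 0.21, adjusted p = 0.0487, up to 0.21 with 1 replicate number left out), and in ZMAT5, at 127 to 238 (median 179) against 179 to 284 (median 215) (log2 −0.30, SE 0.10, adjusted p = 0.0485, up to 0.37 with 1 replicate number left out, 0.25 with multimapped reads removed). Ranges overlapped in both arms. The other differences of UQCRFS1 ran from log2 −0.19 in ZFP36L1 to 0.21 in BRCA1 with no call. UQCRB, UQCRC2 and UQCRQ each fell in CNOT4 (log2 −0.44, −0.49 and −0.28), and UQCRB, a ubiquinone-binding subunit, also fell in ZFP36L1 and ZMAT3 (−0.35 and −0.29) and rose in MAZ (0.28). For UQCRC2 in CNOT4 the adjusted p was 0.053 with multimapped reads removed. UQCR11 rose in CNOT4 and ZFP36L1 (0.39 and 0.57).

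UQCRH, the acidic hinge subunit, and UQCRHL, an intronless copy of it on the same chromosome, diverged although their counted sequences are 96.9% identical over 196 aligned positions. UQCRHL rose in ZNF706, at 346 to 515 (median 449.5) against 222 to 357 (median 272) (log2 0.65, SE 0.082, adjusted p = 5.2e-07), and in ZMAT5, MAZ and ZMAT3 (log2 0.61, 0.45 and 0.35). It fell in ZFP36L1, at 90.4 to 207 (median 114) against 227 to 361 (median 273) (log2 −1.22, SE 0.12, adjusted p = 8.2e-11), where no library overlapped NT, and in CNOT4, at 83.6 to 428 (median 114) against 239 to 381 (median 288) (log2 −1.04, SE 0.19, adjusted p = 9.9e-05), where libraries overlapped. UQCRH rose by log2 0.30 in ZFP36L1, fell by log2 0.29 in CNOT4 (adjusted p = 0.034, 0.094 with multimapped reads removed), and was not called elsewhere (−0.081 to 0.22). With reads scaled to all counted reads of the library (RPM), UQCRH in CNOT4 overlapped NT at 0, 2 and 4 h. The middle libraries stood at 552, 502 and 513 in CNOT4 against 567, 503 and 523 in NT. At 8 h the CNOT4 libraries, those with pulse-chase headers, lay below NT, at 336 to 372 against 496 to 590. Few reads of the pair were multimapped, 0.014% for UQCRHL and 1.49% for UQCRH. Whether reads went to the right locus at this identity was not tested, so the split between them remains uncertain.

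Cytochrome c mRNA fell in 2 arms. CYCS (chr7:25118656-25125260, minus strand) stood at 108 to 461 (median 324) normalised CPM in CNOT4 against 567 to 984 (median 727) in NT (log2 −1.19, SE 0.14, adjusted p = 1.0e-07), with no overlap. In ZFP36L1 it stood at 352 to 541 (median 459.9) against 538 to 939 (median 689.8) (log2 −0.60, SE 0.076, adjusted p = 5.7e-08), with overlap. The remaining 6 differences ran from −0.12 in PHF7 to 0.24 in ZMAT3 and none was called.

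COX7C, a small membrane subunit of complex IV (chr5:86617928-86620962, plus strand), was the only member called higher in all 8 arms. In ZFP36L1 it stood at 535 to 892 (median 672) against 179.9 to 372 (median 252) (log2 1.36, SE 0.094, adjusted p = 3.9e-14), and in MAZ at 374 to 622 (median 462) against 181 to 369 (median 255) (log2 0.85, SE 0.086, adjusted p = 6.7e-09). Neither set overlapped NT. In CNOT4 it stood at 309 to 798 (median 608) against 189.6 to 392 (median 266) (log2 1.05, SE 0.13, adjusted p = 1.8e-07), in ZNF706 at 360.0 to 545 (median 422) against 178 to 364 (median 251) (log2 0.75, SE 0.093, adjusted p = 5.1e-07), and in BRCA1 at 320.2 to 563 (median 409.9) against 180.5 to 368 (median 255) (log2 0.66, SE 0.10, adjusted p = 2.3e-04). These overlapped NT. The smallest differences were in ZMAT5, PHF7 and ZMAT3, at log2 0.64 (adjusted p = 2.8e-06), 0.42 (adjusted p = 0.031) and 0.38 (adjusted p = 0.0027). The CNOT4 difference was uneven over the chase. In RPM, the middle CNOT4 library stood at 777, 634, 575 and 343 at 0, 2, 4 and 8 h, against 253, 224, 285 and 250 in NT. The CNOT4 8 h libraries, those with pulse-chase headers, still lay above NT (337 to 459 against 242 to 320). Dependence of COX7C in CNOT4 on chase time was called with multimapped reads removed and not in the main fit. Since all 8 comparisons use the same NT libraries, each arm was also set against the other 7 knockdowns in place of NT. COX7C was then higher in ZFP36L1 and CNOT4 (log2 0.66 and 0.30), lower in ZMAT3 and PHF7 (−0.47 and −0.44) and not called in BRCA1, MAZ, ZMAT5 and ZNF706 (−0.15, 0.062, −0.16 and −0.060).

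**Figure D2:**
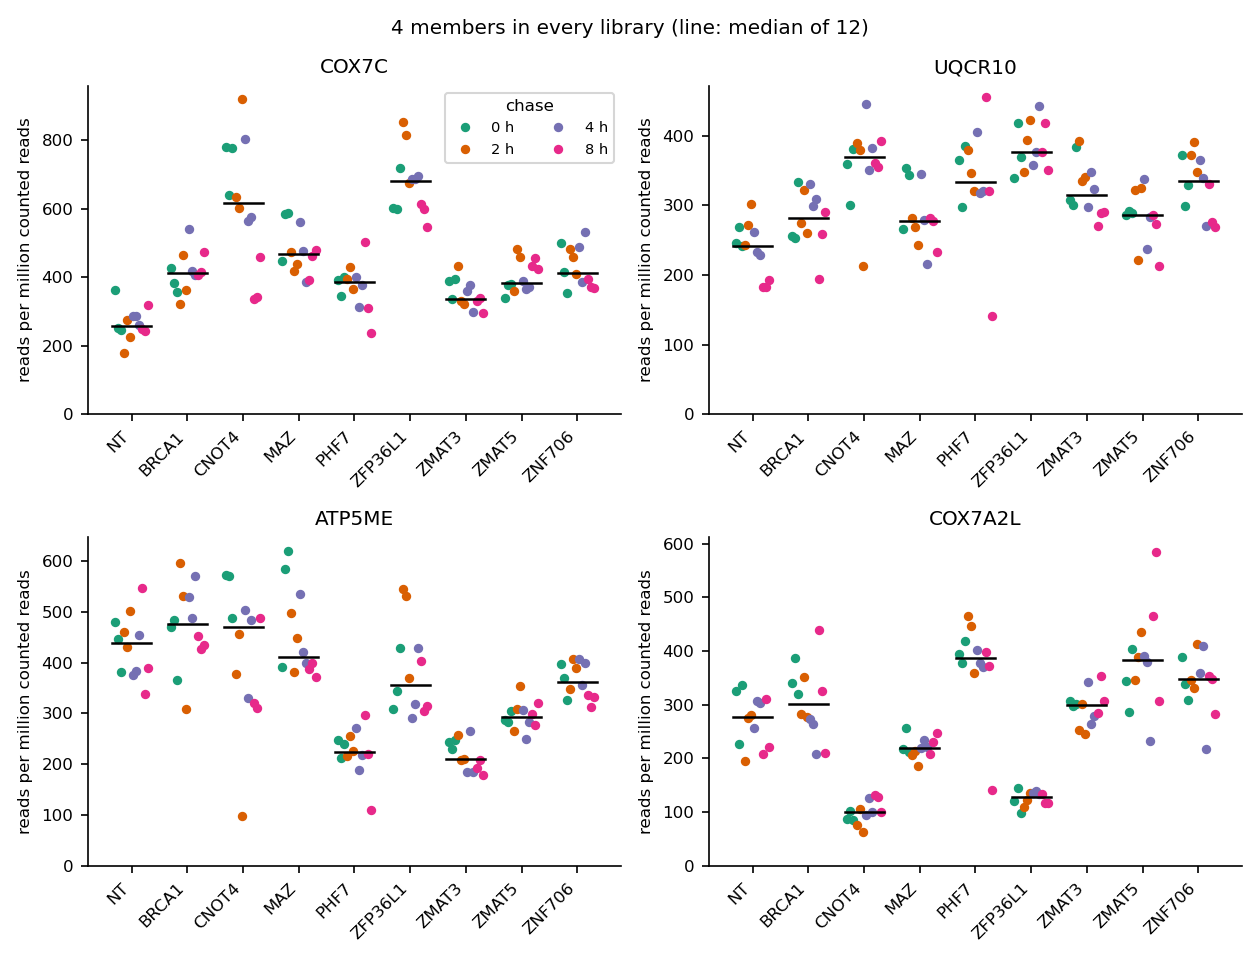
Reads of COX7C, UQCR10, ATP5ME and COX7A2L as RPM (reads scaled to all counted reads of the library) in each of the 108 libraries, by arm (12 points each, coloured by chase time; line, median of the arm). COX7C is lowest in NT, ATP5ME is lowest in PHF7 and ZMAT3, and COX7A2L is lowest in CNOT4 and ZFP36L1.

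COX6B1 and COX5B rose most in CNOT4 and ZFP36L1. COX6B1, which joins complex IV monomers on the intermembrane side (chr19:35648323-35658782, plus strand), stood at 142 to 350.0 (median 254) in CNOT4 against 56.3 to 137 (median 106) in NT (log2 1.27, SE 0.16, adjusted p = 3.3e-07) and at 214 to 303 (median 247) in ZFP36L1 against 53.3 to 129.6 (median 101) (log2 1.37, SE 0.13, adjusted p = 4.7e-11). No library of either arm overlapped NT. COX5B, a zinc-binding subunit, stood at 176 to 414 (median 278) in CNOT4 against 124 to 193 (median 163) (log2 0.78, SE 0.12, adjusted p = 4.4e-06), and its log2 difference was 1.02 in ZFP36L1, without overlap, and 0.40 in MAZ. COX7B rose in MAZ, at 328 to 598 (median 373) against 206 to 354 (median 298) (log2 0.50, SE 0.087, adjusted p = 1.3e-04), with overlap, and in ZFP36L1 (log2 0.75) and CNOT4 (0.57, adjusted p = 0.017, 0.093 with multimapped reads removed).

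COX7A2L, a COX7A-like protein known as SCAF1 that links complexes III and IV in supercomplexes (chr2:42333546-42425088, minus strand), moved in opposite directions between arms. It fell in CNOT4, at 48.5 to 121 (median 97.2) against 206 to 361 (median 288) (log2 −1.57, SE 0.13, adjusted p = 1.2e-10), and in ZFP36L1, at 97.6 to 149 (median 129.8) against 195 to 345 (median 275) (log2 −1.09, SE 0.095, adjusted p = 1.3e-11). Neither arm overlapped NT. In MAZ it stood at 188 to 272 (median 219.6) against 197 to 342 (median 277) (log2 −0.28, SE 0.085, adjusted p = 0.027, up to 0.27 with 1 replicate number left out), and it rose in ZMAT5, PHF7 and ZNF706 (log2 0.53, 0.42 and 0.39). Its relative COX7A2 rose in ZMAT5, at 240.3 to 383 (median 269.7) against 161 to 251 (median 180.1) (log2 0.58, SE 0.093, adjusted p = 2.1e-05), and in ZFP36L1 (log2 0.50).

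COX5A, which binds near the matrix face of complex IV, was the member of this complex that fell in most arms. It stood at 279.9 to 374 (median 332) in ZMAT5 against 352 to 510.0 (median 426) (log2 −0.39, SE 0.071, adjusted p = 1.9e-04) and at 305 to 423 (median 349) in ZNF706 against 352 to 512 (median 425) (log2 −0.30, SE 0.074, adjusted p = 0.010, up to 0.28 with 1 replicate number left out), and fell by log2 0.37 in PHF7 and 0.36 in ZMAT3. Ranges overlapped NT in all 4. COX4I1, which joins early in assembly, rose in ZFP36L1 alone (log2 0.32, adjusted p = 1.5e-04), and its other differences lay between 0.034 in BRCA1 and 0.21 in CNOT4. COX6C, a small membrane subunit, rose in MAZ, ZMAT5 and ZNF706 (log2 0.43, 0.41 and 0.31), with no overlap in ZMAT5, where its lowest library was at 405.5 and the highest NT library at 404.8. It fell in CNOT4, at 143 to 347 (median 272) against 253 to 430.4 (median 362) (log2 −0.47, SE 0.12, adjusted p = 0.0028, up to 0.073 with 1 replicate number left out), and was 0.27, −0.047, −0.26 and −0.19 in BRCA1, PHF7, ZFP36L1 and ZMAT3, not called. COX8A fell in ZMAT5 (log2 −0.34) and COX6A1 rose in ZFP36L1 (0.36). COX8C was called in PHF7 (adjusted p = 0.019) from 181 reads in 6 libraries, with 0 reads in NT. All were multimapped and the call is gone without them, so no fold is given.

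Complex V members moved both ways within an arm: of 18 tested, 5 rose and 4 fell in CNOT4, and 11 rose and 2 fell in ZFP36L1 (all genes 13.5% and 13.5%, 21.7% and 18.3%). ATP5F1B, the catalytic beta subunit (chr12:56638175-56645984, minus strand), rose in ZFP36L1, at 787 to 1062 (median 955) against 409.8 to 618 (median 501) (log2 0.91, SE 0.071, adjusted p = 9.5e-13), and in CNOT4, at 693 to 1065 (median 883) against 432 to 648 (median 529) (log2 0.74, SE 0.087, adjusted p = 7.0e-08). Neither overlapped NT. Its log2 difference was 0.40 in MAZ, also called, and −0.075 to 0.22 in the other 5 arms, not called. The 3 genes of subunit c, the membrane ring that turns with proton flow, encode the same mature protein and behaved differently. ATP5MC1 rose in ZFP36L1, at 333 to 475 (median 388) against 129.6 to 265 (median 215) (log2 0.96, SE 0.090, adjusted p = 7.8e-11), without overlap, and in CNOT4 and MAZ (log2 0.72 and 0.36). ATP5MC2 rose in ZFP36L1 alone (log2 0.58, adjusted p = 9.9e-07). ATP5MC3 was below NT in all 8 fits and was called in ZMAT3, at 668 to 891 (median 756) against 947 to 1389 (median 1205) (log2 −0.60, SE 0.055, adjusted p = 8.7e-10), without overlap, and in CNOT4 (log2 −0.65). Where they were not called, ATP5MC1 was −0.17 to 0.22, ATP5MC2 −0.28 to 0.20 and ATP5MC3 −0.25 to −0.084.

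Subunits e, f and g, small membrane proteins where ATP synthase dimers meet, fell together in PHF7 and ZMAT3. ATP5ME (subunit e; chr4:672436-674330, minus strand) stood at 173 to 262 (median 209) in ZMAT3 against 338 to 548 (median 441) in NT (log2 −1.02, SE 0.081, adjusted p = 4.2e-11), and at 63.2 to 298 (median 223) in PHF7 against 351 to 567 (median 458) (log2 −0.98, SE 0.12, adjusted p = 8.4e-07). ATP5MF (subunit f) stood at 201 to 302 (median 249) in ZMAT3 against 345 to 497 (median 422) (log2 −0.73, SE 0.073, adjusted p = 5.1e-09) and at 199 to 309 (median 264) in PHF7 against 358 to 516 (median 438) (log2 −0.71, SE 0.093, adjusted p = 2.8e-06). None of these sets overlapped NT. In ZMAT5 both fell with overlap, ATP5ME at 247 to 371 (median 297) against 329 to 535 (median 431) (log2 −0.51, SE 0.078, adjusted p = 9.3e-06) and ATP5MF by log2 0.35, and ATP5MF fell in CNOT4 (−0.42). ATP5MG (subunit g) fell in CNOT4, PHF7, ZFP36L1 and ZMAT3 (log2 −0.69, −0.58, −0.53 and −0.51) and rose in ZMAT5 and ZNF706 (0.37 and 0.32) and in MAZ, at 1445 to 2292 (median 1669) against 1014 to 1478 (median 1227) (log2 0.46, SE 0.061, adjusted p = 1.4e-06). Only in ZMAT3 did its libraries not overlap NT. The ETS letters lie near the start of ATP5ME and ATP5MG, as printed above. ATP5MF is not among the members in which they were found. They also lie near the start of COX6B1 and COX5B, which were not called in PHF7 or ZMAT3 (COX6B1 log2 −0.15 and −0.12, COX5B 0.058 and 0.037). A link between these letters and level was not tested.

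ATP5PD, the d subunit of the peripheral stalk, fell in CNOT4 (log2 −0.77, adjusted p = 0.0497, 0.055 with multimapped reads removed), PHF7 (−0.57), ZFP36L1 (−0.47) and ZMAT3 (−0.32), all with overlap. ATP5F1D, the delta subunit of the central stalk, rose in CNOT4 and ZFP36L1 (log2 0.60 and 0.57). It fell in PHF7, at 0 to 44.5 (median 33.7) against 19.8 to 89.9 (median 55.7) (log2 −0.79, SE 0.22, adjusted p = 0.022, up to 0.27 with 1 replicate number left out), and in ZNF706, at 13.2 to 55.4 (median 31.2) against 18.6 to 84.5 (median 52.4) (log2 −0.75, SE 0.22, adjusted p = 0.033, up to 0.37 with 1 replicate number left out). Its libraries overlapped NT in each of these arms. ATP5MK rose in ZFP36L1, at 121 to 207 (median 179) against 53.1 to 128 (median 81.2) (log2 1.04, SE 0.12, adjusted p = 1.8e-08), with overlap. Of the other members, ATP5F1A (alpha subunit), ATP5MJ and ATP5PF (stalk subunit F6) each rose in 4 arms, up to log2 0.43, 0.55 and 0.56. ATP5F1E rose in ZFP36L1 and MAZ (0.74 and 0.40), ATP5PB in ZFP36L1 (0.32) and ATP5PO in MAZ (0.34). ATP5F1C (gamma subunit) rose in ZFP36L1 (0.30) and fell in ZMAT3 (−0.27).

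Reads of several members sat elsewhere in the gene in CNOT4 and ZFP36L1, the 2 arms with fewer T positions per read. For 13 members with more than 1 counted interval above 5% of reads, the share of reads in the most 3′ interval did not overlap NT for 6 members in CNOT4, 6 in ZFP36L1, 1 in PHF7, 1 in ZMAT3 and 0 in the other 4 arms. Over 2092 genes with such intervals and over 5 CPM in every arm, the share without overlap was 11.1% in CNOT4, 19.3% in ZFP36L1, 0.287% in PHF7, 0.430% in ZMAT3, 0.0478% in MAZ, 0.191% in ZMAT5 and 0% in BRCA1 and ZNF706. For COX4I1 this share was 52.4% to 65.7% (median 59.2%) in NT, 93.7% to 99.9% (median 96.3%) in CNOT4 and 93.0% to 98.0% (median 96.6%) in ZFP36L1. For ATP5F1A it was 27.4% to 61.0% (median 44.1%) in NT and 82.7% to 92.4% (median 90.0%) in ZFP36L1, and for UQCRH 71.0% to 85.8% (median 80.3%) against 96.0% to 99.1% (median 98.2%). The shift ran towards the poly(A) end in these. For UQCRB it ran the other way in 2 arms with T positions per read like those of NT, 66.2% to 82.8% (median 75.4%) in NT against 23.2% to 58.4% (median 53.8%) in PHF7 and 52.9% to 65.8% (median 57.3%) in ZMAT3. The part of read position in the level differences was not tested.

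CNOT4 and ZFP36L1 were also set against each other at 0, 2 and 4 h, a comparison added after the data were seen. Of the members, 4 were then called (3.19% of all genes, either way), all lower in CNOT4: COX7A2L (log2 −0.57), ATP5F1A (−0.57), UQCRH (−0.45) and ATP5MC3 (−0.43). Of members far from NT in both arms, the log2 difference between the arms was −0.025 for COX6B1, −0.15 for COX7C, −0.21 for COX5B, −0.21 for ATP5F1B, −0.27 for ATP5MC1, −0.19 for UQCRHL and −0.57 for CYCS, none of them called.

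**Figure D3:**
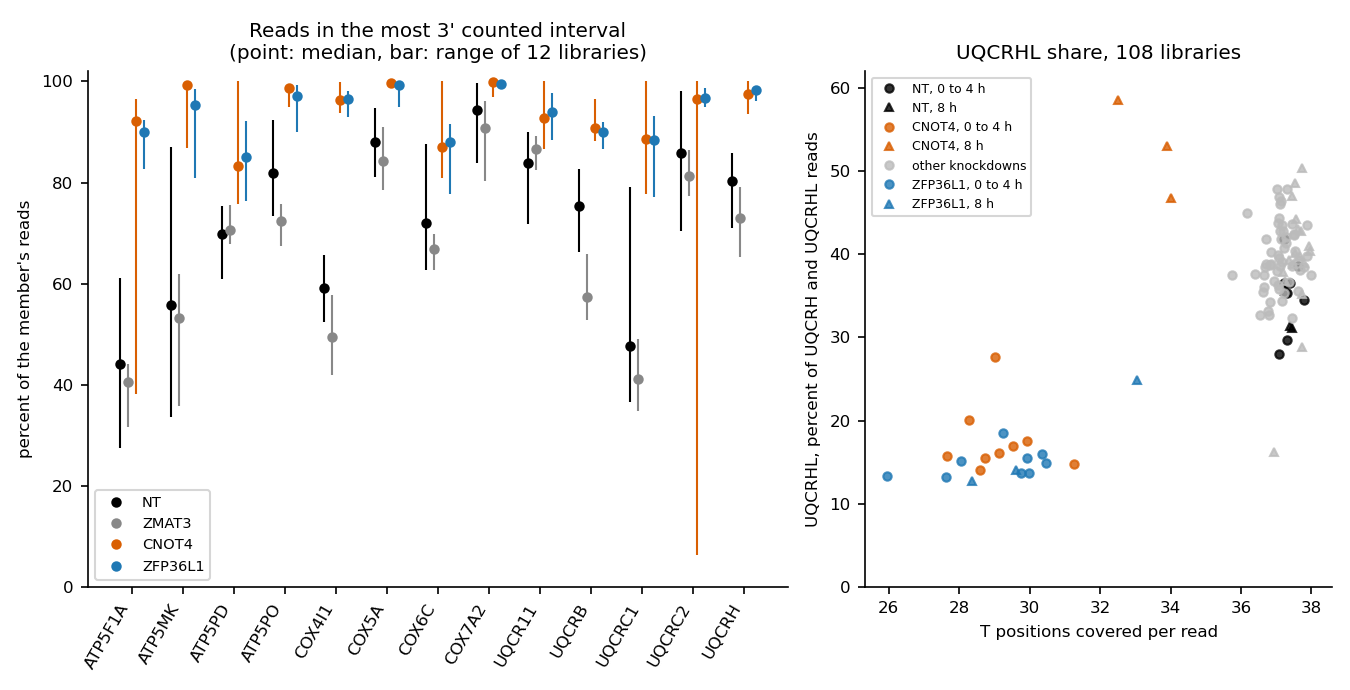
Left, percent of a member's reads in its most 3′ counted interval for 13 members in NT, ZMAT3, CNOT4 and ZFP36L1 (point, median of 12 libraries; line, range). Right, percent of UQCRH and UQCRHL reads assigned to UQCRHL against T positions covered per read, 1 point per library (108). COX4I1 stands at a median of 59.2% in NT and 96.3% in CNOT4, and in the right panel the 3 CNOT4 8 h libraries lie above the other CNOT4 libraries and all NT libraries, within or above the range of the other knockdowns.

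The difference from NT depended on chase time for 1 member in 1 arm, UQCRHL in CNOT4 (edgeR, adjusted p = 4.7e-04), where 0.571% of genes were called. Its log2 difference was −1.42, −1.49 and −1.55 at 0, 2 and 4 h and 0.40 at 8 h. The share of UQCRH and UQCRHL reads that fell on UQCRHL was 14.0% to 27.6% (median 16.1%) in the 9 earlier CNOT4 libraries and 46.8%, 53.0% and 58.6% in the 3 at 8 h. In NT it was 28.0% to 41.8% over 12 libraries. T positions per read moved with it, 27.7 to 31.3 against 32.5 to 34.0, and these 8 h libraries are those whose headers name a pulse-chase design. Without the libraries that stand apart the call was not made. In NT itself, 0 of 40 members and 0 of 12126 genes differed between 8 h and 0 h by edgeR (0%). At an unadjusted p under 0.05 there were 3 members and 615 genes, and DESeq2 called 96 genes with 0 members among them. The smallest p among members was that of UQCRQ (log2 −0.44, SE 0.15, adjusted p = 0.88).

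Members entered the chase with less label than other mRNAs and left it with more. Label was read in 39 members over 5 CPM in every arm and summed over them, beside the same sum over 6372 genes that pass that filter. In NT, the members' T>C rate at 0 h was 1.63%, 1.39% and 1.41% in the 3 libraries, 1.48% ± 0.134 (SD, n = 3), against 1.79% ± 0.0781 over all genes. At 8 h it was 1.04%, 0.894% and 1.05%, 0.995% ± 0.0882, against 0.637% ± 0.0337. All 3 libraries lay below the genes' rate at 0 h and above it at 8 h. The ratio of the members' rate to that of all genes went from 0.825 ± 0.0404 to 1.56 ± 0.0987.

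The crossing was seen in all 9 arms. At 0 h the ratio was under 1 in 27 of 27 libraries (0.774 to 0.878), and at 2 h in 26 of 27. The exception, CNOT4 2 h replicate 3 at 1.78, is the shallow CNOT4 library. At 4 h the ratio was over 1 in 27 of 27 (1.05 to 1.23), and at 8 h in 27 of 27, from 1.36 up to 2.84 in the shallowest library (PHF7 8 h replicate 3, the other PHF7 libraries at 1.41 and 1.46). In each arm the 3 ratios at 8 h lay above the 3 at 0 h. An exact two-sided permutation test gave p = 0.1 in each arm, the smallest possible with 3 libraries against 3.

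**Figure D4:**
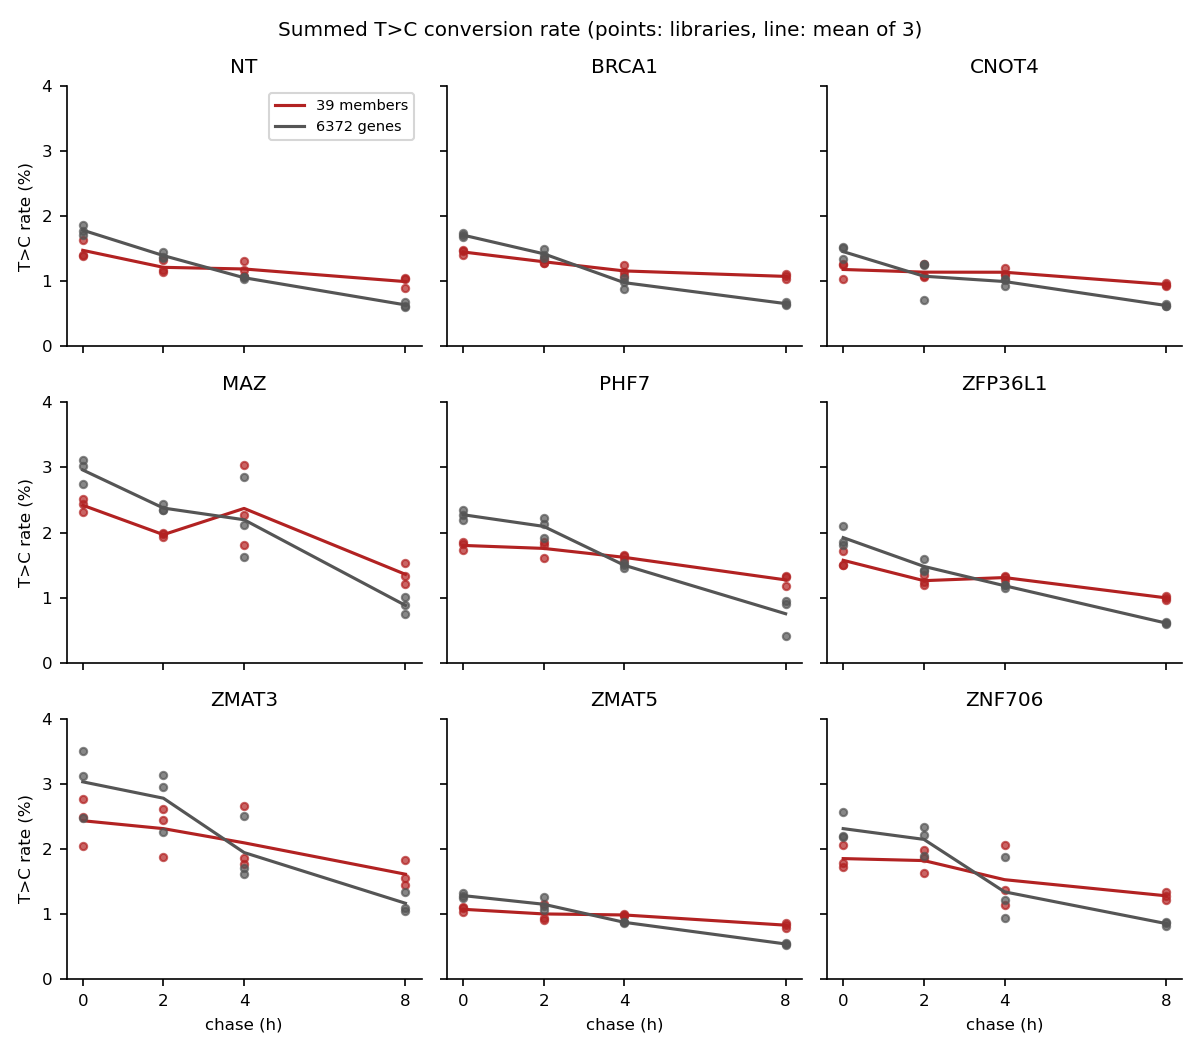
T>C rate in percent, summed over 39 members and over 6372 genes, against hours of uridine chase in the 9 arms (points, libraries; lines, means of 3). In each panel the members start below all genes at 0 h and lie above them at 4 and 8 h, in NT 1.48% against 1.79% at 0 h and 0.995% against 0.637% at 8 h.

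By member, the share of the 0 h label kept at 8 h had a median of 70.2% over 39 members in NT, against 22.7% over 6366 genes, and 39 of 39 members lay above the median of all genes. The members' median was 59.1% in MAZ, the lowest, and 84.5% in CNOT4, the highest, where all genes stood at 20.3% and 33.1%. The CNOT4 value sets the 8 h libraries with pulse-chase headers (32.5 to 34.0 T positions per read) against 0 h libraries with 28.7 to 29.9. Loss of label and this difference between libraries cannot be told apart there. In every arm 38 or 39 of 39 members lay above the median of all genes. The member that kept least was UQCRFS1 in 8 of 9 arms, from 20.1% in MAZ to 39.4% in ZNF706, and ATP5F1D in BRCA1 (19.3%). A value over 100% means a higher mean rate at 8 h than at 0 h. UQCRC1 in NT read 0.338%, 0.759% and 0.645% at 0 h, and its mean at 8 h was 136% of the mean at 0 h.

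Label at 0 h differed from NT for many members in 2 arms. In MAZ, 34 of 39 members were called higher and none lower, where 37.5% of all genes were higher and 0% lower. In ZMAT3, 24 were higher and none lower, beside 31.1% and 0% of genes. The medians over members were log2 0.78 and 0.73, beside 0.84 and 0.87 over all genes. CYCS read 3.10%, 2.81% and 2.96% in the 3 MAZ libraries and 3.33%, 2.35% and 3.28% in ZMAT3 against 2.33%, 1.56% and 1.86% in NT (log2 0.62, SE 0.14, adjusted p = 0.014) for MAZ. ATP5F1B read 2.53%, 2.40% and 2.12% in MAZ against 1.58%, 1.37% and 1.23% in NT (log2 0.75, SE 0.13, adjusted p = 0.0064). All MAZ libraries exceeded all NT libraries for both. In ZMAT5, ATP5MG and COX7A2 were called lower (log2 −0.61 and −1.20), and none higher, where 3.62% and 0.0684% of genes were. No member was called in BRCA1, CNOT4, PHF7, ZFP36L1 or ZNF706 by edgeR, with 2, 7, 15, 6 and 11 of 39 at an unadjusted p under 0.05, where 3.85, 8.74, 24.4, 12.3 and 18.6% of genes were. In ZFP36L1 0.0407% of genes were higher, and in the other 4 of these arms 0%. Set relative to the pooled rate of each library, no member was called in any arm, beside 0.0145% of genes in CNOT4, 0.0407% in ZFP36L1 and 0% in the other 6. For MAZ no member was called without replicate 2, and for ZMAT3 none without replicate 1 or without replicate 3.

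A first-order curve with R² over 0.6 was reached by 23 of 39 members in NT, and 16 fell under that limit. The median half-life of the 23 was 12.3 h, against 3.27 h over 5544 genes, and curves through single replicate numbers gave medians of 8.00 ± 1.63 h (SD, n = 3). Most half-lives of members lie beyond the 8 h that were sampled. Among the 23, the longest were those of ATP5PB (26.4 h) and ATP5PO (24.7 h), both of the peripheral stalk, and UQCR10 (20.5 h). These kept 75.1%, 76.4% and 77.1% of their label at 8 h. Some of the 16 without a half-life kept more, such as ATP5MJ (88.6%), COX6C (88.3%) and UQCRQ (83.3%), and some less, such as COX7A2 (55.2%). The shortest were those of UQCRFS1 (4.11 h), CYCS (6.56 h) and UQCRC2, the second core protein (8.86 h). UQCRFS1 read 2.51%, 1.46% and 2.39% at 0 h and 0.932%, 0.237% and 0.473% at 8 h in NT, with no overlap.

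As a rate per hour over all 12 libraries, which is defined for each of the 39 members, UQCRFS1 lost label at 0.168 ± 0.0343 (SE) in NT, beside a median of 0.0404 over members and 0.188 over 6372 genes. UQCRC2 and CYCS followed at 0.0909 ± 0.0337 and 0.0822 ± 0.0170. UQCRFS1 had the highest rate of the members in 8 of 9 arms, from 0.125 to 0.195 per hour. In BRCA1 ATP5F1D stood above it, 0.231 ± 0.169 against 0.147 ± 0.0306, a gap within their SE. 30.5% of UQCRFS1 reads were multimapped, and their part in its rate was not tested.

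**Figure D5:**
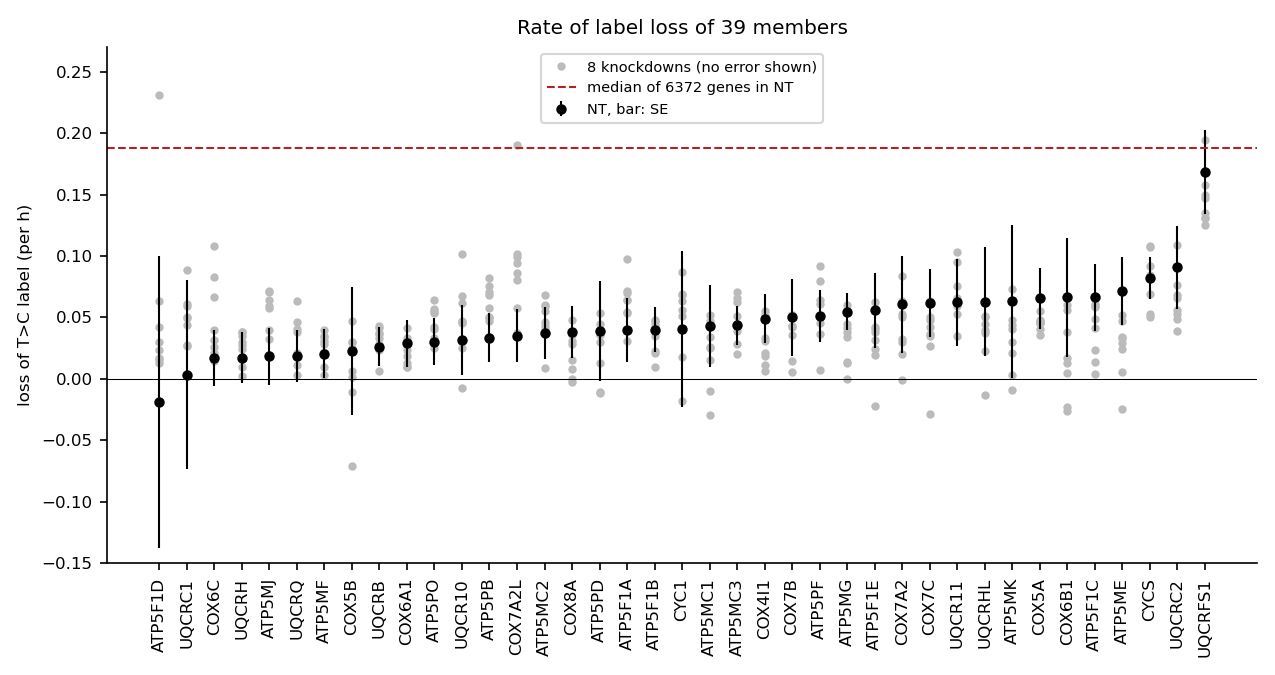
Rate of loss of T>C label per hour of chase for 39 members in NT (black, ± SE) and in the 8 knockdowns (grey), with the median of 6372 genes in NT as a dashed line at 0.188. All members in NT lie below the dashed line, and UQCRFS1, at 0.168, lies nearest to it.

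Rates of loss were compared with NT by the difference in slope (edgeR), and no member was called in any of the 8 arms. Over all genes 0, 4, 3, 23, 6, 43, 5 and 1 were called in BRCA1, CNOT4, MAZ, PHF7, ZFP36L1, ZMAT3, ZMAT5 and ZNF706, which is 0, 0.0579, 0.0402, 0.307, 0.0815, 0.573, 0.0684 and 0.0136% of those tested. At an unadjusted p under 0.05 there were 1, 1, 1 and 2 members in BRCA1, CNOT4, MAZ and ZMAT5 and 0 in the other 4 arms, where 6.85% (MAZ) to 11.2% (ZMAT3) of genes were. limma on the same data called 0 members in each arm. The median SE of the difference ran from 0.0260 per hour in ZFP36L1 to 0.0572 in CNOT4, so a change of the size of the members' own median rate in NT was not detectable for most of them.

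The smallest p among members was that of COX7A2L in MAZ. Its T>C rate was 3.04%, 2.51%, 2.32% and 0.661% at 0, 2, 4 and 8 h in MAZ against 1.49%, 1.27%, 1.35% and 1.08% in NT (means of 3). The 3 MAZ libraries read 0.549%, 0.898% and 0.535% at 8 h and the NT libraries 1.19%, 0.857% and 1.21%. The fitted rate was 0.190 per hour against 0.0353, a difference of 0.155 (SE 0.0369, 95% interval 0.0827 to 0.227, adjusted p = 0.17). It was called when T>C reads were counted in place of conversions and when rates were set relative to the pooled rate of each library.

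Half-lives of members that could be fitted in both arms differed from NT by a median log2 ratio of 0.40 (22 members, all genes 0.54) in ZMAT3, 0.25 (22 members, all genes 0.46) in PHF7, −0.084 (21 members, all genes 0.14) in ZFP36L1, −0.006 (17 members, all genes 0.27) in ZNF706 and −0.014 (12 members, all genes 0.37) in ZMAT5. In MAZ it was −0.20 (13 members, all genes 0.33), in BRCA1 −0.18 (13 members, all genes 0.022) and in CNOT4 0.63 (4 members, all genes 0.23). The members' median lay under that of all genes in 7 of 8 arms, and CNOT4, with the fewest members, was the exception. The T>C rate over all genes was uneven between the 4 h replicates of 2 arms, at 2.85%, 1.63% and 2.11% in MAZ and 1.87%, 1.21% and 0.944% in ZNF706. The CNOT4 curves include the 8 h libraries with pulse-chase headers. The part of either in these ratios was not tested. These medians carry no test, and the tally is unstable. With 1 replicate left out the ratio was 0.12 to 0.54 in MAZ, 0.38 to 0.77 in ZMAT5 and 0.20 to 1.03 in ZNF706. The negative sign in these arms was thus lost whichever replicate was left out. In BRCA1 it was −0.062 to 0.69, which also excludes the value above. Such ranges were not computed over all genes, and those of the other arms are given in the closing section.

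The counted 3′ UTR sequences of members were short. Over 47 members the median counted length was 405 bases against 1483 over 19761 genes, and the AU-rich letters TATTTAT (sense strand alone) occurred in 8 members (17.0%) against 32.1% of genes. Over the 39 members and 6372 genes with label the lengths were 506 and 2090 bases, and the letters occurred in 20.5% and 38.8%. These letters are part of the AU-rich elements that ZFP36 proteins are known to bind, and a longer sequence holds more matches.

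Genes that assemble these complexes were counted beside them, by the same calls. The shares of all genes that rose and fell were 13.5% and 13.5% in CNOT4, 21.7% and 18.3% in ZFP36L1 and 5.19% and 3.55% in MAZ, and lay between 0.0393% and 5.49% in the other arms. Of 29 assembly factors of complex IV, 3 rose and 14 fell in CNOT4, 4 rose and 10 fell in ZFP36L1, and 5 rose and 2 fell in MAZ. In PHF7 0 rose and 1 fell, in ZMAT3 3 and 2, in ZMAT5 3 and 3 and in ZNF706 3 and 0. No gene of any of these lists was called in BRCA1. The largest log2 differences called were those of CMC1 in CNOT4 (−1.40), COX17 in MAZ (0.49), PET100 in PHF7 (−0.54), PET117 in ZFP36L1 (−1.15), PET100 in ZMAT3 (−0.59), COA6 in ZMAT5 (−0.90) and COA1 in ZNF706 (0.51). Of 9 assembly factors of complex III, 4 rose and 4 fell in ZFP36L1, led by LYRM7 in ZFP36L1 (1.25). Rises and falls numbered 1 and 2 in CNOT4, 1 and 0 in MAZ, 0 and 3 in PHF7, 1 and 2 in ZMAT3, 0 and 1 in ZMAT5 and 0 and 0 in ZNF706. UQCC5 moved both ways, 0.73 in MAZ, −0.69 in PHF7 and −0.71 in ZMAT3. UQCC4 led in CNOT4 (−1.56) and UQCC3 in ZMAT5 (−0.73).

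Of 7 genes that assemble or inhibit complex V, 5 fell and none rose in CNOT4, where 13.5% of all genes fell. Rises and falls numbered 2 and 0 in MAZ, 0 and 1 in PHF7, 0 and 3 in ZFP36L1, 0 and 1 in ZMAT3, 0 and 0 in ZMAT5 and 1 and 0 in ZNF706. FMC1, which acts in assembly of its catalytic head, was the largest there (−0.93) and in PHF7 and ZMAT3 (−0.65 and −0.68), as was TMEM242 in ZFP36L1 and ZNF706 (−1.08 and 0.64) and as was DMAC2L in MAZ (0.54). Of 8 genes of complex II, which feeds the chain from succinate, 1 rose and 3 fell in CNOT4, and 2 and 3 in ZFP36L1, led by SDHAF3 in CNOT4 (−1.64) and SDHC in ZFP36L1 (−1.12). In the other arms 0 to 2 rose and none fell, led by SDHAF3 in PHF7 (0.66), SDHAF2 in ZMAT3 (0.70), SDHC in ZMAT5 (0.52) and SDHC in ZNF706 (0.31). Of 14 regulators of respiratory genes, set against the same shares of all genes, 1 rose and 5 fell in CNOT4, 3 and 4 in ZFP36L1 and 0 and 3 in MAZ, led by POLRMT, the mitochondrial RNA polymerase (2.86 in CNOT4 and 3.11 in ZFP36L1), and by PPRC1 in MAZ (−0.54). None was called in the other 5 arms.

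Of the 6 mitochondrially encoded subunits of complexes III, IV and V, 3 had counted intervals and were analysed here. None rose outside ZFP36L1, where 1 did, and 2 fell in CNOT4, 2 in MAZ, 3 in PHF7, 2 in ZFP36L1, 3 in ZMAT3, 1 in ZMAT5 and 2 in ZNF706. Of all genes, 21.7% rose in ZFP36L1. The shares that fell were, in the order of the falls, 13.5, 3.55, 4.53, 18.3, 4.75, 4.22 and 2.29%. MT-ATP8 had the largest log2 difference in CNOT4, ZFP36L1 and ZMAT3 (−3.27, −3.81 and −0.37). CNOT4 and ZFP36L1 are the arms with fewer T positions per read, and the part of this in the falls was not tested. MT-ATP6 had it in MAZ, PHF7, ZMAT5 and ZNF706 (−0.49, −0.74, −0.70 and −0.65). Both genes lie on a shared mitochondrial transcript and encode membrane subunits of complex V. ATP5MG, a nuclear partner in the membrane, fell in CNOT4, PHF7, ZFP36L1 and ZMAT3 and rose in MAZ, ZMAT5 and ZNF706, as given above.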

How the data were processed

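Tables for 108 SLAM-seq libraries were analysed. The authors trimmed the reads and aligned them to hg38 with SlamDunk 0.4.3, keeping multimapped reads. The strand setting, any variant mask and the base quality minimum were not given in the sources used here. The deposited tables hold read counts, T>C read counts, covered T positions and conversions per 3′ UTR interval, CPM scaled by the authors to all mapped reads, and the conversion rate, which was deposited as a fraction. Reads carry no molecular identifiers, so counts can include PCR copies.

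Intervals (69079) were summed per gene, and GENCODE release 44 gave symbols and coordinates (1-based, hg38). Levels were tested with edgeR 4.0.16 (quasi-likelihood, TMM, filterByExpr) on the 12 libraries of a knockdown and 12 of NT with chase time as a factor, Benjamini-Hochberg over all genes, called at adjusted p under 0.05 and a fold over 1.2. Normalised CPM are TMM values of that fit. Label was tested on conversions with covered T as offset, in genes over 5 CPM in 2 replicates at each time of both arms, at 0 h between arms and as a difference in slope over chase hours. Half-lives used replicate means set to 1 at 0 h and R² over 0.6. The fits were tested on simulated data.

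Named members were, per knockdown, up to 3 called with the largest rise and 3 with the largest fall, those called for decay or chase time, the 3 longest and shortest half-lives in NT, COX7C, CYCS, CYC1, UQCRFS1, COX4I1, COX6C, ATP5F1B and the subunit c genes in every arm, and tissue isoforms by read count. Of the other lists, the called gene with the largest change in each knockdown was named, and members named beyond these were chosen after their values were seen. Members and lists were chosen with earlier results of these data known. Replicate numbers did not pair the libraries across arms: deviations of 96 same-numbered pairs correlated between −0.032 and 0.020. Alternatives were DESeq2 1.42.0, upper-quartile scaling, no filter, multimapped reads removed, a replicate block, 0 h libraries alone, libraries that stand apart left out, other knockdowns as control, each replicate left out, T>C reads in place of conversions, rates relative to the pooled rate, other CPM filters, other curve settings and limma 3.58.1.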

Additional observations from a re-analysis of the deposited data

Results flagged for a closer look

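The difference in UQCRHL level between the libraries labelled CNOT4 and NT depended on chase time, with an adjusted p of 0.000465 in edgeR's test of the arm by time terms. It was below NT at 0, 2 and 4 h and above NT at 8 h. The 3 CNOT4 libraries at 8 h cover more T positions per read than the 9 earlier ones, their headers name a pulse-chase design, and the call was lost without the libraries that stand apart. Time and this difference between libraries cannot be told apart.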

How the results depend on the processing

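In the order BRCA1, CNOT4, MAZ, PHF7, ZFP36L1, ZMAT3, ZMAT5 and ZNF706, members called for level numbered 1, 25, 16, 12, 29, 13, 13 and 11. With 0 h libraries alone there were 0, 16, 1, 5, 15, 2, 0 and 0 (all genes 0, 12.4, 0.59, 1.69, 14.0, 0.432, 0.909 and 0.458%). Against the other knockdowns there were 8, 5, 7, 7 and 3 in BRCA1, MAZ, ZMAT3, ZMAT5 and ZNF706 (all genes 16.9, 5.88, 4.75, 14.9 and 9.16%). With CNOT4 and ZFP36L1 against each other at 0 to 4 h (chosen after the data were seen) there were 4 (all genes 3.19%). Leaving out 1 replicate number gave 1 to 1, 11 to 21, 11 to 12, 3 to 11, 27 to 29, 9 to 12, 8 to 12 and 3 to 8. The shares of all genes were then 0.0311 to 0.0546, 13.7 to 27.3, 3.77 to 4.68, 1.87 to 8.92, 31.3 to 34.0, 4.80 to 5.90, 5.09 to 5.19 and 2.07 to 4.00%. The replicate block gave 1, 24, 16, 12, 29, 13, 13 and 11, and of the paired fits it changed beyond 1.5 times only the label at 0 h in ZMAT5, 2 to 0 members. Upper-quartile scaling could not be fitted for PHF7. Other alternatives for level stayed within 1.5 times.

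Members called for label at 0 h went from 34 to 0 in MAZ, 24 to 0 in ZMAT3 and 2 to 0 in ZMAT5 relative to the pooled rate. Counting T>C reads gave 19, 0 and 1, and 6 in place of 0 in CNOT4, and put the NT rate of members at 0 h at 36.7% of reads in place of 1.48% of T positions. Genes over 1 CPM gave 1 in ZMAT5. Without 1 replicate the counts were 0 to 19 in MAZ, 0 to 27 in ZMAT3 and 0 to 0 in ZMAT5. Decay calls went from 0 to 1, COX7A2L in MAZ, with T>C reads and relative to the pooled rate. Members dependent on chase time numbered 2 with DESeq2 (UQCRHL in CNOT4 and ATP5MG in BRCA1), 2 with multimapped reads removed (UQCRHL and COX7C in CNOT4), 0 without libraries that stand apart and 0 to 1 without 1 replicate.

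The NT median half-life of members was 9.17 to 10.6 h without 1 replicate, against 12.3 h. The members' log2 half-life ratio without 1 replicate was, in the same order, −0.062 to 0.69, −0.089 to 0.94, 0.12 to 0.54, −0.025 to 0.95, −0.087 to 0.66, −0.081 to 0.96, 0.38 to 0.77 and 0.20 to 1.03, with 1 replicate left out giving no value in CNOT4. In CNOT4 it was 0.52 with a straight line, 0.44 with no R² minimum, 0.79 over 10 CPM, −0.32 with T>C reads and 1.01 without the shallow library. A straight line gave −0.66 in MAZ and −0.40 in PHF7, T>C reads 0.75 in ZMAT3 and 0.56 in ZMAT5, and no R² minimum 0.69 in ZMAT5.

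Over the settings of single named members, 1043 values kept direction and side of the threshold, 107 fell below it, 18 rose past it and 15 changed sign. The last were, against the other knockdowns, COX7C −0.15 in BRCA1, COX7C −0.44 in PHF7, COX7C −0.47, UQCR10 −0.011 in ZMAT3, COX7C −0.16 in ZMAT5 and COX7C −0.060 in ZNF706 (log2), and, CNOT4 and ZFP36L1 against each other, ATP5F1B −0.21, ATP5MC1 −0.27, COX5B −0.21, COX6B1 −0.025, COX7C −0.15 in CNOT4 and ATP5MC3 0.43, COX7A2L 0.57, CYCS 0.57, UQCRHL 0.19 in ZFP36L1. The fits of CNOT4 and ZFP36L1 against each other hold no NT library, and they mirror each other. A member that moved the same way from NT in both arms must change sign in either the CNOT4 or the ZFP36L1 fit. These sign changes therefore say nothing on how well the differences from NT hold. The cause of the other sign changes was not tested. Depth limits the label in PHF7 8 h replicate 3, and the 8 h of chase limit longer half-lives.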
